A study of Gallus gallus with 60 samples.

Results

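The translation initiation and elongation factors of the chicken cerebrum were followed over every probe set whose single gene symbol in the array's probe annotation begins with EIF1 to EIF6, without the EIF2AK kinases, or with EEF1 or EEF2. These were 91 of the 38535 probe sets and 50 of the 13009 genes with a symbol, and 25 of these 50 genes had more than 1 probe set. A further probe set matching both EIF3D and FOXRED2 was not counted as a member. The RNA was that of 60 laying hens, 65 to 67 weeks old, sampled in the posterior cerebrum, 28 of the white layer line Lohmann Selected Leghorn (LSL) and 32 of the brown line Lohmann Brown (LB), with 1 Affymetrix chicken array per hen. Hens of both lines were kept in a small group housing system, with 13 LSL and 15 LB hens from compartments of 36 birds and 15 LSL and 17 LB hens from compartments of 54. The right side of the cerebrum was sampled in 54 hens and the left side in 6 hens. At sampling the authors told stressed from unstressed layers by handling behaviour, plumage and skin lesions, and that status did not enter the fits. Lines were not mixed within a compartment and the compartment of each hen is not stated in the labels, and standard errors that take each hen as independent can therefore be too small.

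Protein synthesis starts when eIF2, carrying GTP and the initiator tRNA, binds the small ribosomal subunit together with eIF1, eIF1A, eIF3 and eIF5, while the eIF4 factors recognise the cap of the mRNA and unwind its leader. After the start codon has been found, eIF5B joins the large subunit, and eEF1 and eEF2 then bring in each aminoacyl-tRNA and move the ribosome along. In neurons, phosphorylation of eIF2 and eEF2 and the binding of eIF4E by its binding proteins are known as switches by which synaptic activity and stress set the rate of translation.

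The deposited values are log2 values in which each probe set had been centred on its median separately over hens 1 to 30 and over hens 31 to 60. A value therefore says how far a hen lies from the median hen of its set and is no expression level, so that levels of the factors cannot be ranked and the tissue cannot be checked by the level of its markers. Both sets hold both lines, with 15 LSL and 15 LB hens in hens 1 to 30 and 13 LSL and 17 LB hens in hens 31 to 60. Differences are LSL minus LB on the log2 scale from limma with the array set entered as a block, and a call means a Benjamini-Hochberg adjusted p under 0.05 over all 38535 probe sets. Over 8 marker lists, 4 of 72 probe sets of cell type markers were called, all higher in LSL, where 18.3% of the array was called. They were 1 each of NEFM (0.22) and ELAVL4 (0.14) of neurons and of MBP of oligodendrocytes (0.18). The last was 1 of DCN of the choroid plexus and meninges list (0.36). Other probe sets of these lists were lower in LSL without a call, such as 1 each of SYN2 (-0.11), STMN2 (-0.11) and MOG (-0.036). None of the probe sets listed for the pallium, astrocytes, microglia, red blood cells or cerebellum and midbrain was called, and the list medians ran from -0.068 for cerebellum and midbrain to 0.13 for red blood cells. The part of cell composition in the differences given here was not tested. The arrays of LB hens 7, 8 and 16, from compartments of 54 birds and within hens 1 to 30, stood apart in the balance of signal between transcript ends, which the array measures on control genes. Their actin 5' values lay below their actin 3' values by log2 differences of -1.69, -2.88 and -2.89, against -0.757 to 0.237 in the other LB hens and -1.33 to 0.204 in LSL hens, and results that rest on these arrays are given with and without them. In such bulk tissue fewer cells of a type and less RNA per cell cannot be told apart.

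Between the lines, 20 of the 91 probe sets passed the threshold (22%), against 18.3% of all probe sets on the array. Higher in LSL were 11 of them (12.1% of the 91, against 8.13% of the array) and lower were 9 (9.89%, against 10.2%), so the share of called factors lay near that of the array. The called probe sets belonged to 16 genes, and their differences were small. Their sizes ran from 0.054 to 0.33 on the log2 scale with a median of 0.18, against a median of 0.19 over all called probe sets. No factor passed 2-fold, as 0.392% of the array did. The median difference of all 91 probe sets was 0.014, and that of the array was -0.0096. The direction was the same in hens 1 to 30 and in hens 31 to 60 for 71 of the 91 probe sets, and for all 20 called ones. The 20 were called from both sets together, which favours a shared direction, so this is no replication. Only some of the 20 passed within a set taken alone, 7 in hens 1 to 30 and 14 in hens 31 to 60. Over all 91 probe sets, 7 passed within hens 1 to 30 (7.69%, background 7.77%) and 19 within hens 31 to 60 (20.9%, background 13.2%). The 4 of the 20 that passed in both sets were EIF2S3, EEF2KMT, EIF4ENIF1 and EIF5A2, each lower in LSL. Of the 91, 9 passed within compartments of 36 birds (9.89%, background 9.29%) and 17 within compartments of 54 birds (18.7%, background 14.8%). No probe set of the 91 separated the lines without overlap in both sets, as 0.135% of the array did.

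**Figure D1:**
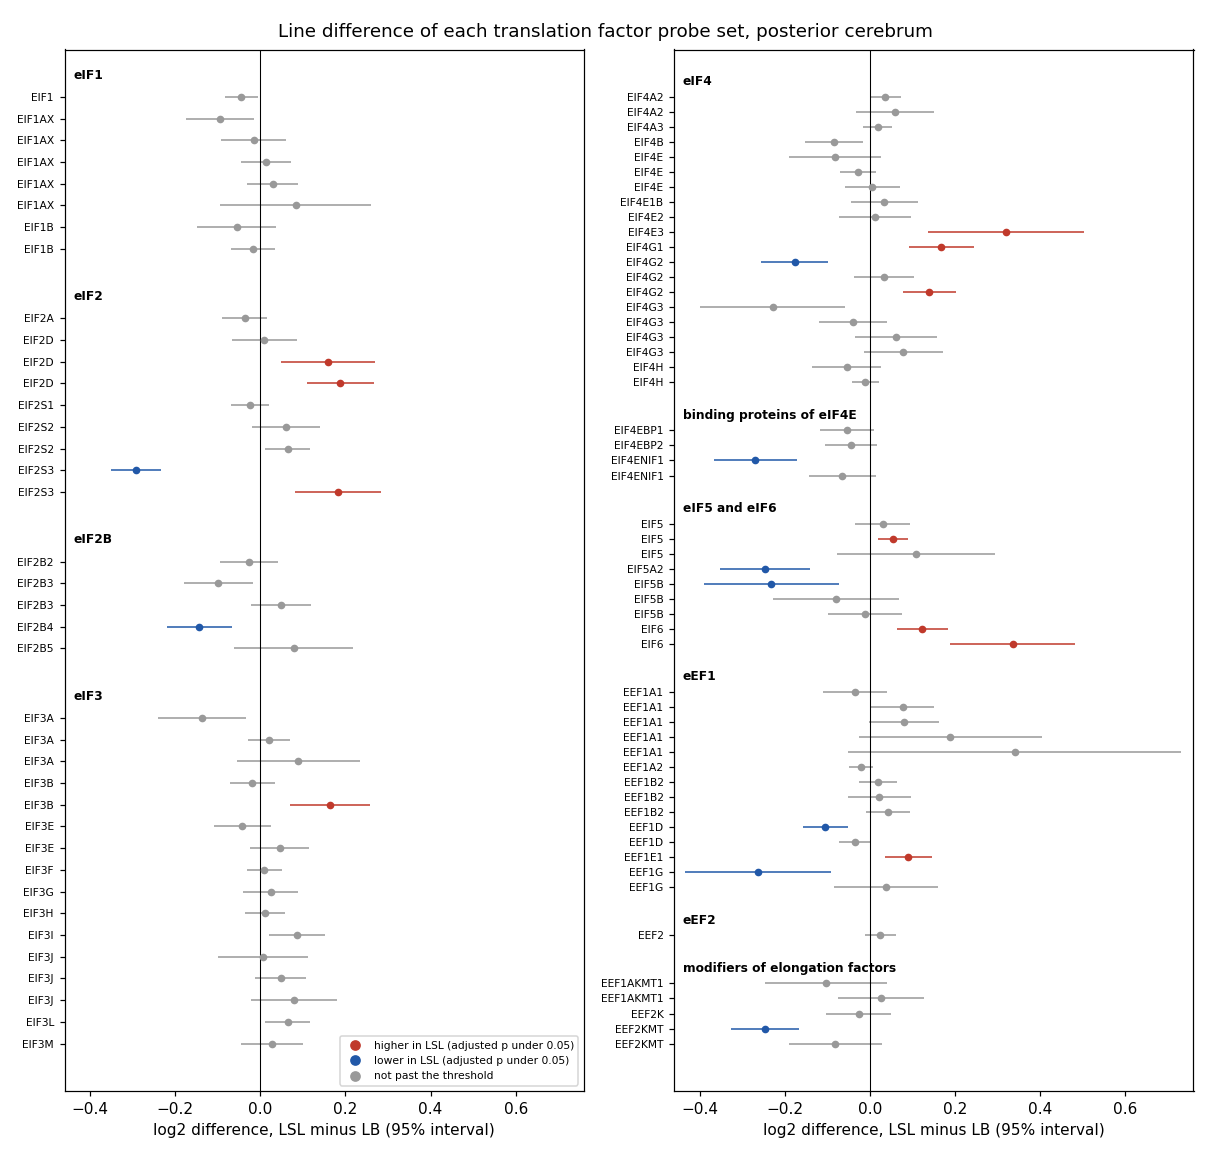
Difference between the lines (LSL minus LB, log2 scale, x axis) of each of the 91 probe sets with its 95% interval from limma, grouped by role. Red points are the 11 probe sets higher in LSL, blue points the 9 lower, and grey points those past no threshold. Most intervals include 0, and probe sets of EIF2S3 and EIF4G2 lie on both sides.

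Among the factors that load the small subunit, the clearest difference was in EIF2S3, the gamma subunit of eIF2, which binds GTP and the initiator tRNA. In hens 1 to 30 the values of 1 of its 2 probe sets ran from -0.44 to 0.097 in LSL with a median of -0.15, and from -0.060 to 0.39 in LB with a median of 0.16. In hens 31 to 60 they ran from -0.39 to -0.0028 in LSL with a median of -0.13, and from -0.057 to 0.33 in LB with a median of 0.11. Every LSL hen was under the LB median of its set, and 12 of 15 and 11 of 13 LSL hens lay below every LB hen, so the lines overlapped in part. The difference was -0.29 (standard error 0.030, adjusted p = 5.13e-12 by limma), a 1.22-fold lower value in LSL. It was -0.31 and -0.27 within the sets, and -0.32 in compartments of 36 and -0.26 in compartments of 54.

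The other probe set of EIF2S3 went the opposite way. In hens 1 to 30 its values ran from -0.18 to 0.24 in LSL (median 0.038) and from -0.97 to 0.16 in LB (median -0.093). Over hens 31 to 60 they ran from -0.027 to 0.22 in LSL (median 0.077) and from -0.14 to 0.051 in LB (median -0.037), and 10 of 13 LSL hens lay above every LB hen. LSL was higher by 0.18 (standard error 0.051, adjusted p = 0.0059 by limma). By limma this difference was 0.25 in hens 1 to 30 (adjusted p = 0.117) and 0.11 in hens 31 to 60 (adjusted p = 0.0017). In compartments of 36 it was 0.070 (adjusted p = 0.325) and in compartments of 54 it was 0.29 (adjusted p = 0.0137). The 3 lowest LB values came from hens 7, 8 and 16, and without them the difference was 0.098 (adjusted p = 0.0025). Across the 60 hens, after set, line and group size were taken out, both probe sets of EIF2S3 correlated by r = 0.041, so they did not vary together from hen to hen.

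**Figure D2:**
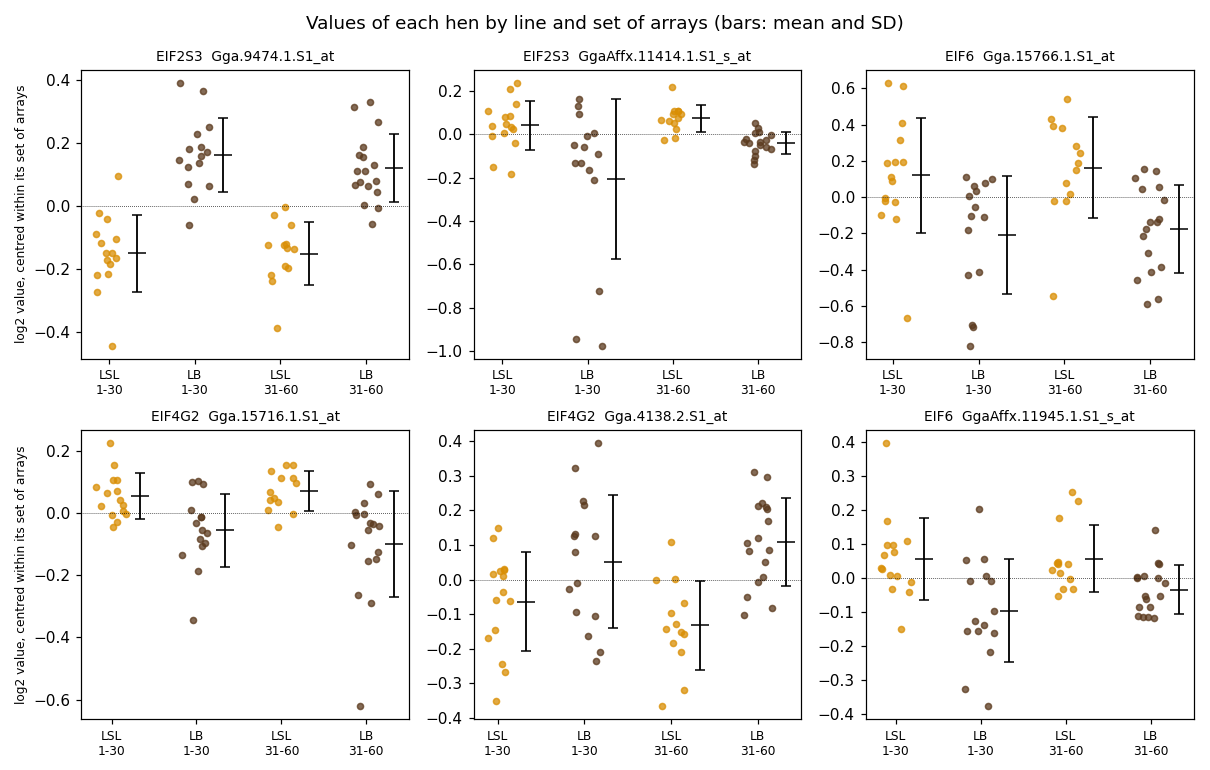
Values of each hen (log2, centred within its set of arrays, y axis) by line and set for both probe sets of EIF2S3, of EIF6 and 2 of EIF4G2, with bars for the mean and SD. EIF2S3 and EIF4G2 each show 1 probe set lower and 1 higher in LSL, and both probe sets of EIF6 are higher in LSL in both sets. The lowest LB value, at -0.97, is that of the EIF2S3 probe set in the upper middle panel, where 3 LB hens lie far below the others.

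The remaining subunits of eIF2 were not called. EIF2S1, the alpha subunit that carries the regulatory phosphorylation site, differed by -0.025 (standard error 0.022, adjusted p = 0.504 by limma), and EIF2S2, the beta subunit, by 0.064 and 0.060 in its probe sets. Of eIF2B, the exchange factor that reloads eIF2 with GTP, the delta subunit EIF2B4 was lower in LSL by 0.14 (difference -0.14, standard error 0.038, adjusted p = 0.0036), and the other 4 probe sets of 3 genes did not pass.

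EIF2D, which despite its name is a separate factor that can deliver tRNA to the ribosome and takes part in recycling, was higher in LSL in 2 of 3 probe sets. In the probe set with the smallest p the values of hens 1 to 30 ran from -0.13 to 0.39 in LSL (median 0.063) and from -0.46 to 0.20 in LB (median -0.054). Those of hens 31 to 60 ran from -0.083 to 0.39 in LSL (median 0.12) and from -0.29 to 0.16 in LB (median -0.059). The lines overlapped widely, with 12 of 15 and 12 of 13 LSL hens higher than the median LB hen. The difference was 0.19 (standard error 0.039, adjusted p = 1.88e-04 by limma). A companion probe set of EIF2D differed by 0.16 (standard error 0.055, adjusted p = 0.0338), whereas the third differed by 0.0093 (adjusted p = 0.914).

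None of the 8 probe sets of eIF1 factors passed, with differences from -0.094 to 0.083. These factors guard the fidelity of start codon choice, and they include 5 probe sets of EIF1AX that did not move as a unit, with correlations among them from -0.433 to 0.843. Of eIF3, the multi-subunit scaffold on the small subunit, 1 of 16 probe sets passed (array 18.3%). EIF3B, a core subunit, was higher in LSL by 0.16 (standard error 0.047, adjusted p = 0.0087 by limma), but by 0.098 without the 3 LB hens that stood apart (adjusted p = 0.0298), and the other probe set of EIF3B differed by -0.019. EIF3I at 0.086 (adjusted p = 0.0553) and 1 of 3 probe sets of EIF3A at -0.14 (adjusted p = 0.0557) lay just outside the threshold.

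The eIF4 group holds the factors that act on the mRNA cap and their relatives. In it 4 of 20 probe sets passed (array 18.3%), 3 higher and 1 lower in LSL. Of these calls, 1 higher and 1 lower were of EIF4G2, which is described below. EIF4G1, the scaffold that joins the cap-binding protein to the helicase and to eIF3, was higher by 0.17 (standard error 0.038, adjusted p = 6.91e-04 by limma), with 0.23 and 0.10 within the sets. EIF4E3, a relative of the cap-binding protein, was higher by 0.32 (standard error 0.092, adjusted p = 0.0083). This difference was 0.52 in hens 1 to 30 and 0.11 in hens 31 to 60, and 0.24 without the 3 LB hens that stood apart (adjusted p = 0.0402). EIF4E itself did not pass in any of 3 probe sets, at -0.082 (adjusted p = 0.333), -0.029 and 0.0057. Outside the threshold by little lay 1 of 4 probe sets of EIF4G3, a further scaffold of the family, at -0.23 (adjusted p = 0.0505).

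EIF4G2, a relative of EIF4G1 that lacks the site for eIF4E and serves cap-independent initiation in mammals, was called in both directions. Of its 3 probe sets, the higher had values from -0.046 to 0.22 in LSL (median 0.043) and from -0.35 to 0.10 in LB (median -0.054) in hens 1 to 30. Over hens 31 to 60 the values were -0.045 to 0.15 in LSL (median 0.068) and -0.62 to 0.092 in LB (median -0.041). LSL was thus the higher line here, with 15 of 15 and 12 of 13 LSL hens higher than the median LB hen, and the difference was 0.14 (standard error 0.031, adjusted p = 4.50e-04 by limma). For the lower probe set of EIF4G2 the values of hens 1 to 30 were -0.35 to 0.15 in LSL (median -0.037) and -0.23 to 0.39 in LB (median 0.081). Those of hens 31 to 60 were -0.37 to 0.11 in LSL (median -0.14) and -0.10 to 0.31 in LB (median 0.11). Here LSL was the lower line, with 13 of 15 and 12 of 13 LSL hens lower than the median LB hen. The difference was -0.18 (standard error 0.039, adjusted p = 4.52e-04). By limma neither called probe set passed in hens 1 to 30 (0.11, adjusted p = 0.0791, and -0.12, adjusted p = 0.305). Both passed in hens 31 to 60 (0.17, adjusted p = 0.0171, and -0.24, adjusted p = 4.01e-04). In compartments of 36 neither passed (0.099, adjusted p = 0.0810, and -0.13, adjusted p = 0.164). Both passed in compartments of 54 (0.18, adjusted p = 0.0153, and -0.21, adjusted p = 0.0047). The third probe set of EIF4G2 differed by 0.033 (adjusted p = 0.603), and the correlations among the 3 over hens were 0.321, 0.019 and -0.134.

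Of the proteins that bind eIF4E, EIF4ENIF1 was lower in LSL. It carries eIF4E between nucleus and cytoplasm and into granules of stored mRNA. The values of its called probe set in hens 1 to 30 ran from -0.65 to 0.43 in LSL (median -0.22) and from -0.34 to 0.54 in LB (median 0.095). In hens 31 to 60 they ran from -0.39 to 0.058 in LSL (median -0.25) and from -0.16 to 0.35 in LB (median 0.067). The lines overlapped, but in LSL 14 of 15 and 13 of 13 hens lay under the median of LB. The difference was -0.27 (standard error 0.049, adjusted p = 1.67e-05 by limma), and the other probe set of EIF4ENIF1 differed by -0.065 (adjusted p = 0.284). That other probe set passed by limma in hens 31 to 60 alone (-0.13, adjusted p = 0.0354) and in compartments of 54 alone (-0.16, adjusted p = 0.0199). It passed in no further fit. EIF4EBP1, the repressor of eIF4E that mTOR phosphorylates, differed by -0.054 (standard error 0.031, adjusted p = 0.266), which did not pass.

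Of the 9 probe sets of the eIF5 and eIF6 group 5 were called, at least 1 in each of its 4 genes (array 18.3%), though the EIF5 call was lost without LB hens 7, 8 and 16, and the group was not tested as such. EIF6, which keeps the large subunit from joining too early, was the only gene with several probe sets that were all called in the same direction. Values of the EIF6 probe set with the smaller p in hens 1 to 30 ran from -0.66 to 0.63 in LSL (median 0.11) and from -0.82 to 0.11 in LB (median -0.10). Over hens 31 to 60 they ran from -0.54 to 0.54 in LSL (median 0.19) and from -0.59 to 0.16 in LB (median -0.14). In each set 7 LSL hens lay above every LB hen, while the low ends of the lines overlapped. LSL was higher by 0.33 (standard error 0.073, adjusted p = 3.55e-04 by limma), or 1.26-fold. By limma this difference was 0.33 in hens 1 to 30 (adjusted p = 0.0677) and 0.34 in hens 31 to 60 (adjusted p = 0.0089). It was 0.22 in compartments of 36 (adjusted p = 0.261) and 0.44 in compartments of 54 (adjusted p = 0.0012). The other probe set of EIF6 was higher by 0.12 (standard error 0.030, adjusted p = 0.00156). It passed by limma in neither set alone (0.15, adjusted p = 0.0601, and 0.092, adjusted p = 0.0652). In compartments of 36 it did not pass (0.083, adjusted p = 0.187), and in compartments of 54 it did (0.16, adjusted p = 0.0173). Both EIF6 probe sets differed in the same direction between lines, yet within lines they correlated over hens by only r = 0.036.

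EIF5A2, an isoform of the hypusine-bearing factor that helps the ribosome past difficult peptide bonds, was lower in LSL. In hens 1 to 30 its values ran from -0.52 to 0.20 in LSL (median -0.081) and from -0.29 to 0.73 in LB (median 0.12). Those of hens 31 to 60 ran from -0.46 to 0.097 in LSL (median -0.13) and from -0.33 to 0.47 in LB (median 0.12). Although the ranges overlapped broadly, 13 of 15 and 13 of 13 LSL hens were lower than the median LB hen. The difference in EIF5A2 was -0.25 (standard error 0.053, adjusted p = 2.76e-04 by limma).

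EIF5, which triggers GTP hydrolysis on eIF2, was higher in LSL by 0.054 in 1 of 3 probe sets (standard error 0.017, adjusted p = 0.0217 by limma). It lost the call without the 3 LB hens that stood apart (0.043, adjusted p = 0.0767). In compartments of 36 the difference was 0.00068 and in compartments of 54 it was 0.10. EIF5B, the GTPase of subunit joining, was lower in 1 of 3 probe sets (difference -0.23, standard error 0.080, adjusted p = 0.0314 by limma). Without the 3 LB hens that stood apart this difference was -0.33 (adjusted p = 5.63e-06 by limma). It was -0.12 in hens 1 to 30 and -0.35 in hens 31 to 60, and -0.34 in compartments of 36 and -0.11 in compartments of 54. The other probe sets of EIF5B differed by -0.080 and -0.012.

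In elongation, 3 of 14 eEF1 probe sets passed (array 18.3%), 1 each of EEF1D, EEF1G and EEF1E1. No probe set of EEF1A1 or EEF1A2, the carriers of aminoacyl-tRNA, passed. EEF1B2 did not pass in any of 3 probe sets either, with differences from 0.019 to 0.042. EEF1D, the delta subunit of the exchange factor, was lower in LSL (difference -0.11, standard error 0.026, adjusted p = 0.00183 by limma), and its other probe set differed by -0.036. EEF1G, the gamma subunit, was lower in 1 of 2 probe sets (difference -0.26, standard error 0.086, adjusted p = 0.0219). It lost the call without the 3 LB hens that stood apart (-0.19, adjusted p = 0.0833). EEF1E1, which sits in the complex of aminoacyl-tRNA synthetases, was higher by 0.090 (standard error 0.028, adjusted p = 0.0148), with 0.049 and 0.13 within the sets. Without the 3 LB hens that stood apart it was higher by 0.13 (adjusted p = 1.88e-06 by limma).

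EEF1A2, the form of the aminoacyl-tRNA carrier that in mammals is used by mature neurons and muscle, differed by -0.021 (standard error 0.014, adjusted p = 0.357 by limma). EEF2, the translocase, differed by 0.024 (standard error 0.018, adjusted p = 0.408), and its kinase EEF2K by -0.026 (standard error 0.038, adjusted p = 0.721). Among the modifiers, EEF2KMT, which methylates a lysine of eEF2, was the second of the 91 probe sets by p. Values of its called probe set in hens 1 to 30 ran from -0.59 to 0.20 in LSL (median -0.074) and from -0.17 to 0.41 in LB (median 0.16). Over hens 31 to 60 they ran from -0.41 to 0.095 in LSL (median -0.12) and from -0.064 to 0.35 in LB (median 0.14). LSL was the lower line, with 14 of 15 and 13 of 13 LSL hens lower than the median LB hen, and the ranges overlapped. The difference in EEF2KMT was -0.25 (standard error 0.040, adjusted p = 1.97e-06), and that of its other probe set was -0.081 (adjusted p = 0.346). The other probe set passed by limma without LB hens 7, 8 and 16 (-0.13, adjusted p = 0.0352) and in hens 31 to 60 alone (-0.14, adjusted p = 0.0327). It did not pass in hens 1 to 30 alone (-0.024) or in any further fit.

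EEF1A1, the main carrier of aminoacyl-tRNA, had the largest difference of all members and did not pass. It is 1 of the genes for which the array has separate control probe sets near the 5' end, in the middle and near the 3' end of the transcript. The differences were 0.34 at the 5' end (standard error 0.196, adjusted p = 0.257 by limma), 0.19 in the middle (adjusted p = 0.249) and 0.076 at the 3' end (adjusted p = 0.165). They rested on LB hens 7, 8 and 16, whose arrays stood apart. At the 5' probe set of EEF1A1 these hens had values of -2.59, -4.13 and -3.88, at the middle -1.39, -2.26 and -2.0, and at the 3' end -0.484, -0.670 and -0.623. The fall was steepest toward the 5' end, and the lowest 5' value among the other 57 hens was -1.02, in an LSL hen. Without the 3 hens EEF1A1 differed by -0.011, 0.0027 and 0.017 at the 5', middle and 3' probe sets.

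**Figure D3:**
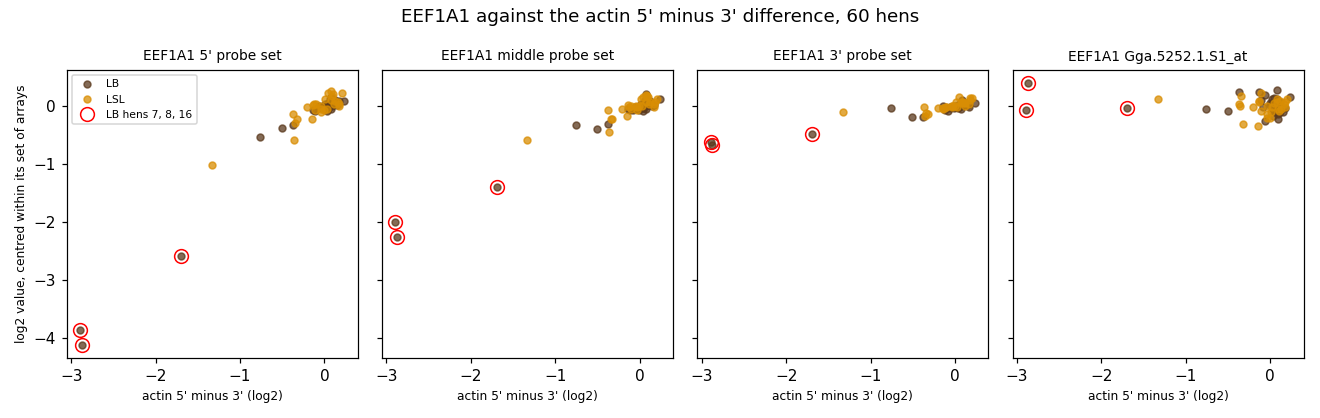
EEF1A1 values of the 60 hens (log2, centred within the set of arrays, y axis) at 4 of its 5 probe sets against the difference of the actin 5' and 3' probe sets of the same array (log2, x axis). LB hens 7, 8 and 16, circled, lie at -2.59 to -4.13 at the 5' probe set, nearer to the others at the 3' probe set, and among the others at a further EEF1A1 probe set in the right panel.

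Values of some other factors moved with this 5' to 3' difference of actin as well. Over 60 hens, with set, line and group size taken out of both measures, 34.1% of the 91 probe sets had a correlation beyond 0.5 in size, against 13% of the array. Without the 3 hens the shares were 12.1% and 4.93%. The shares of the 91 count the probe sets of EEF1A1 as well. Over the other 57 hens these were at 0.803, 0.837, 0.926, 0.927 and -0.087. No share was computed without EEF1A1. The 57 hens keep LSL hen 9, with an actin difference of -1.33, where the next lowest was -0.757 in an LB hen. No correlation was computed without hen 9. The points share the arrays, so these correlations are descriptions of RNA and array together. The highest were those of EEF1A1 (r = 0.975 at the middle and 0.974 at the 5' probe set), followed among other genes by 1 probe set of EIF1AX (0.912) and the EIF2S3 probe set that was higher in LSL (0.870), which over the other 57 hens were at 0.927, 0.926, 0.796 and 0.607. Among further called probe sets the correlation was 0.784 for EIF5B (0.499 over the 57 hens), 0.683 for EIF4E3 (0.608), 0.627 for EIF3B (0.113) and -0.714 for EEF1E1 (-0.426). That of EIF3B thus rested on the 3 hens. With the actin difference as a covariate all 20 called probe sets still passed, and with the 3 hens left out 18 of 20 did.

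The spread between hens of the same line, group size and set was unequal among the factors. The residual SD ran from 0.043 to 0.76 with a median of 0.14, against 0.15 over the array, and 11 of the 91 probe sets were among the 1% of the array with the lowest spread. EEF1A2 had the lowest SD of the factors (0.043), followed by EIF4H (0.052), EIF5 (0.058), the helicase EIF4A3 (0.059) and EEF2 (0.061), each in the probe set with the lower spread where there were several. From centred values it cannot be said whether these are the more highly expressed factors. The highest spread was that of the 5' and middle probe sets of EEF1A1 (0.76 and 0.41) and of EIF4E3 (0.37). That of EEF1A1 includes the 3 arrays that stood apart, and no residual SD was computed without them. In hens 1 to 30 the plain SD of the 5' probe set was 1.49 in LB, which holds these arrays, and 0.35 in LSL.

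**Figure D4:**
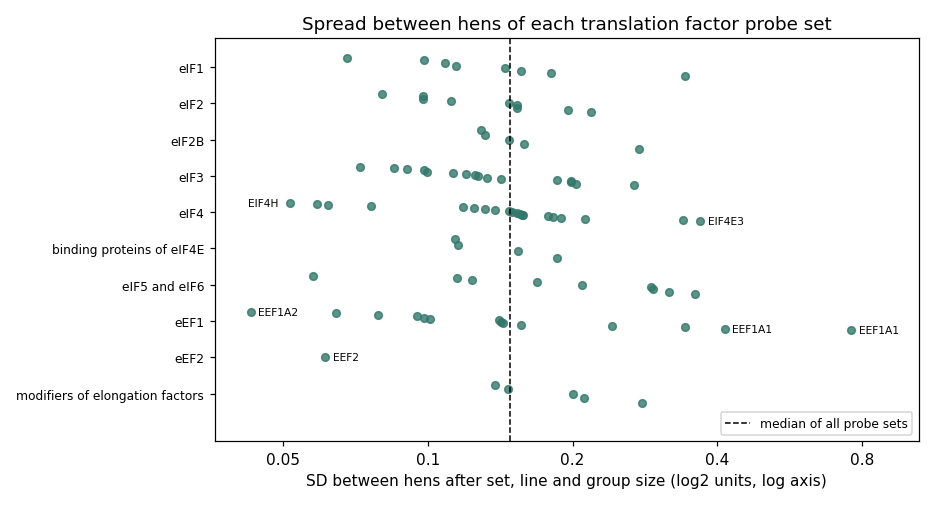
Residual SD between hens after set of arrays, line and group size (log2 units on a log axis, x axis) of the 91 probe sets by role, with the array's median as a dashed line. EEF1A2 at 0.043 and EEF2 at 0.061 lie far below the dashed line, and 2 probe sets of EEF1A1 lie far above it.

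In the median pair, probe sets of the same gene varied together only weakly from hen to hen. Over the 64 pairs within a gene the median correlation of residuals was 0.117. It was -0.0079 over 463 pairs of different genes of the same role and 0.012 over 3568 pairs of factors of different roles. EEF1A1 and EIF1AX, with 5 probe sets each, gave more of the 64 pairs than any other gene. Within genes, the pairs ran from -0.433 in EIF1AX to 0.992 in EEF1A1, with EIF4A2 at 0.640 and EIF2D at up to 0.514. The probe sets of different genes most alike were the EEF1A1 middle probe set and 1 of EIF1AX (0.944), the EEF1A1 5' probe set and the same EIF1AX probe set (0.924), and the EEF1A1 middle probe set and the EIF2S3 probe set that was higher in LSL (0.921). Each of these probe sets also correlated with the actin 5' to 3' difference, and over the other 57 hens they were at 0.899, 0.853 and 0.755.

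Group size was compared as 54 minus 36 birds per compartment with line and set of arrays in the model. No factor passed by limma (0 of 91), against 0.0104% of the array. The t-test of the methods called none either (7 at an unadjusted p under 0.05). By limma 12 of the 91 had an unadjusted p under 0.05 (5 without LB hens 7, 8 and 16), against 3953 of the 38535 of the array. Among these 12 were the 5', middle and 3' probe sets of EEF1A1. The smallest p was that of the EEF2KMT probe set called for the line, with a difference of 0.14 (standard error 0.036, adjusted p = 0.168), which was 0.15 in LSL and 0.14 in LB. The next were 1 probe set of EIF3A at -0.20 (adjusted p = 0.279), EIF4E2, a cap-binding repressor, at 0.11 (adjusted p = 0.327), EIF4EBP1 at 0.074 (adjusted p = 0.367) and 1 probe set of EIF3J at -0.12 (adjusted p = 0.372). Without LB hens 7, 8 and 16 the difference of EIF4EBP1 was 0.036, and within hens 31 to 60 it was -0.0093. The 95% interval of a factor extended by a median of 0.075 to either side. EEF1A1 at its 5' probe set differed by -0.39, made up of -0.065 in LSL and -0.72 in LB, and by -0.040 without LB hens 7, 8 and 16.

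**Figure D5:**
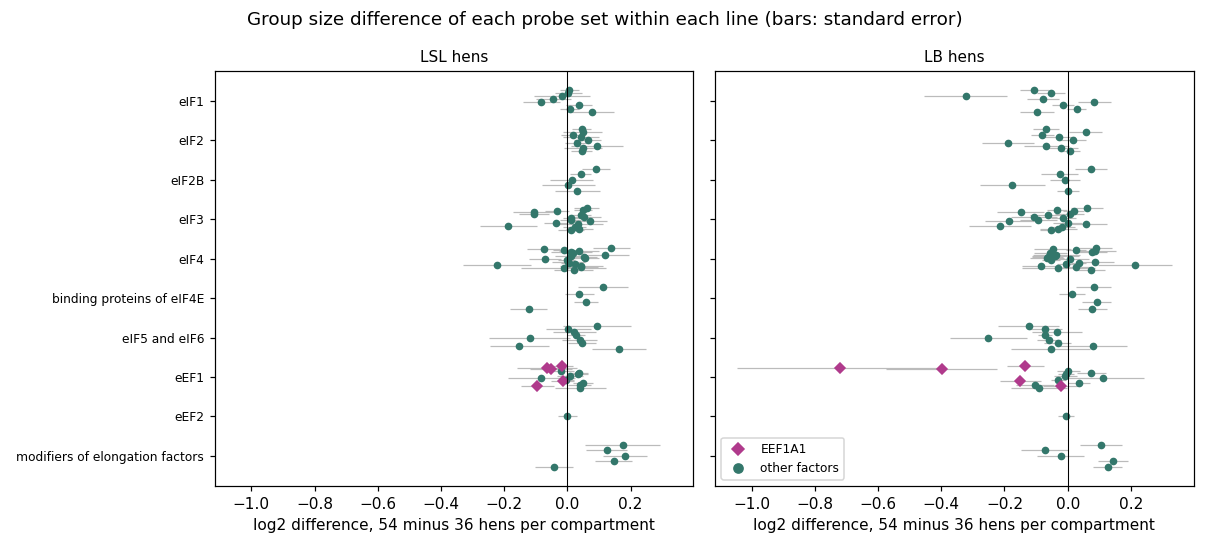
Difference between group sizes (54 minus 36 birds per compartment, log2 scale, x axis) of each probe set within LSL hens and within LB hens, by role, with bars for the standard error. Diamonds are EEF1A1, whose 5' probe set lies at -0.72 in LB and -0.065 in LSL.

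The line difference was not called apart between group sizes for any factor by limma (0 of 91, background 0%). At an unadjusted p under 0.05 were 10 of the 91, against 4975 of the 38535 probe sets of the array. The smallest p values were those of the EIF5 probe set called for the line (interaction 0.10, standard error 0.032, adjusted p = 0.247), of the EIF4ENIF1 probe set not called for the line (-0.21, adjusted p = 0.280) and of 1 EIF4G3 probe set (-0.43, adjusted p = 0.302). Nor was the line difference called apart between the sets of arrays (0 of 91, background 0%). Here 4 of the 91 were at an unadjusted p under 0.05, against 2655 of the 38535 of the array. There the smallest p values were those of EEF1AKMT1, a methyltransferase of eEF1A, at 0.35, of EIF4E3 at -0.41 and of another EIF4G3 probe set at 0.21, each with an adjusted p of 0.717.

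Of 58 other listed genes of translation and its control, 51 were on the array with 114 probe sets, of which 8 were higher and 8 lower in LSL. Together these were 14% of the list's probe sets, against 18.3% of the array, and the median difference was 0.0053. The calls named here rest on 1 probe set each, save that of MTIF2. The smallest p was that of DHX29, a helicase that helps the small subunit through structured leaders, with 1 probe set higher in LSL by 1.01 (standard error 0.068, adjusted p = 5.24e-19 by limma) and the other at -0.035 (adjusted p = 0.877). Of DOHH, the hydroxylase that completes hypusine on eIF5A, 1 of 3 probe sets was lower (-0.17, adjusted p = 4.61e-06), and the others were at -0.071 and -0.012.

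Of the kinases that phosphorylate eIF2, EIF2AK2, which responds to double-stranded RNA, was lower in its only probe set (-0.24, adjusted p = 1.02e-05 by limma). EIF2AK4, which senses uncharged tRNA, was lower in 1 of 3 (-0.19, adjusted p = 0.00398), with the others at -0.058 and -0.0027. EIF2AK1 at 0.014 and EIF2AK3 at -0.046 did not pass. For RICTOR, of the second mTOR complex, 1 of 4 probe sets was lower (-0.58, adjusted p = 7.42e-06), and the others were at -0.14, 0.040 and -0.039. RPTOR, of the first mTOR complex, had 1 of 5 probe sets higher (0.19, adjusted p = 0.00105), and the others ran from -0.031 to 0.063. The mitochondrial initiation factor MTIF2 was higher in 2 of 3 probe sets (0.22, adjusted p = 9.35e-04, and 0.13, adjusted p = 0.0492), with the third at -0.068. MCTS1, a recycling and reinitiation factor, was higher in its only probe set (0.18, adjusted p = 0.00245). No probe set of this list was called for group size (0 by limma).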

How the data were processed

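The authors extracted total RNA, hybridized 1 array per hen, scanned the arrays and processed the images with GCOS 1.2. They deposited log2 expression values made by RMA in GeneSpring GX 11.5, with quantile normalization and centring on the median. In hens 1 to 30 and likewise in hens 31 to 60 every probe set had a median of 0 (within 1e-06). No filter on low values was therefore possible, and the number of arrays limits the precision.

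Line, group size and side were taken from the labels. Fits used R 4.3.3, limma 3.58.1 (lmFit, eBayes without trend) and data.table (version 1.17.8), and were tested on simulated data. The line fit was blocked by array set, and the group size fit also held the line. Symbols came from the probe annotation (27178 probe sets with 1 symbol, 177 with several, 11180 with none). Of 50 member genes, 47 had an identifier among the RefSeq genes of GRCg7b, used for names and gene order only.

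Members and lists were chosen with earlier results of these data known. Named with values by line are the 8 probe sets with the smallest p, with statistics all called ones, 5 for group size, 3 for each interaction and 8 other translation genes, and regardless of result EEF1A1, EEF1A2, EEF2, EIF2S1, EIF4E, EIF4EBP1, EIF4G1 and EEF2K. EIF2S2, EIF2AK1, EIF2AK3, members close in gene order and the higher EIF2S3 probe set with its values were named after their values were seen. So were probe sets just outside the threshold and those of lowest or highest spread. Alternatives were no block, the t-test of the methods, subsets of hens, 2 scalings, further covariates, robust variances and array weights.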

Additional observations from a re-analysis of the deposited data

How the results depend on the processing

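No paired analysis was possible because no hen number recurs in another group. The 20 line calls became 7 (2 higher, 5 lower) in hens 1 to 30 alone and 9 (3 higher, 6 lower) in compartments of 36 alone. Over the array the 7051 calls fell as well, to 2996 and 3581. Hens 31 to 60 alone gave 19 calls (array 5083) and compartments of 54 alone gave 17 (array 5718). The cause of the lower counts was not tested. Under the other 12 alternatives 17 to 23 factors were called, and 5083 to 7998 probe sets of the array. No called factor changed direction under any of the 14, all of which used hens of the main fit. All 20 remained without the block, by the t-test of the methods, on the right side alone, under both scalings, with each set of covariates, with robust variances and with array weights. Of the 20, 13 lost the call in hens 1 to 30, 6 in hens 31 to 60, 11 in compartments of 36, 7 in compartments of 54 and 2 without LB hens 7, 8 and 16. Quantile normalization gave 60.9% higher calls among the factors against 55% in the deposited values, and 50.9% against 44.4% over the array. For group size, hens 31 to 60 alone gave 1 call, the EIF5B probe set called for the line (0.32, standard error 0.057, adjusted p = 0.0088, background 0.33%), which differed by -0.22 (standard error 0.128) in hens 1 to 30. That contrast between the sets was not tested. Hens 1 to 30 include LB hens 7, 8 and 16, all from compartments of 54. No group size fit of hens 1 to 30 left these 3 hens out. Values of this EIF5B probe set correlated with the actin 5' to 3' difference by 0.784 over 60 hens and 0.499 over the other 57. In hens 31 to 60 alone the group size difference of EIF4EBP1 turned to -0.0093, and the cause was not tested. Both interactions had 0 calls under the 3 alternatives run for each.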

Other observations

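Several of the factor genes lie on the same stretch of the RefSeq gene order of GRCg7b, with 8 to 51 protein-coding genes between them. Whether they lie closer together than other genes was not tested. The longest row was EIF4E2, EIF2B5, EIF4G1, EIF4A2 and EIF5A2, with 8, 12, 14 and 35 protein-coding genes between them. In this row EIF4G1 was higher in LSL by 0.17 and EIF5A2 was lower (-0.25), whereas EIF4E2 at 0.012, EIF2B5 at 0.078 and EIF4A2 at 0.036 and 0.059 did not pass by limma. Between EIF2S3, called in both directions, and EIF1AX, not called, lie 15 genes, and between EIF6, higher in LSL in both probe sets, and EIF2S2, not called (0.064 and 0.060), lie 8. EIF3E and EIF3H, with 12 genes between them, were not called. EIF4G2, called in both directions, has 36 genes between it and EIF3M, which was not called, and EIF4EBP2 and EIF3F, with 51 between, were not called either. Genetic differences between the lines at these genes or under the probes were not tested.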
